A study of Mus musculus with 2 samples.

Results

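Uveal meshwork cells of the mouse anterior eye were taken from droplet-based single-cell RNA sequencing of pooled anterior segments, as the cells that carried Lypd1 and Col23a1 together. A barcode was included when at most 8% of its UMIs (unique molecular identifiers, 1 per captured molecule) were mitochondrial, when it held at least 1000 UMIs, at least 1 UMI each of Lypd1 and Col23a1 and at least 5 of Dcn, and when it held at most 4 of Pi16 and Clec3b together. It also had to hold under 5 Kera UMIs per 10,000, not 2 or more of both Edn3 and Gpc3, and 0 of Ptprc and Cdh5. Of 20768 barcodes passing the mitochondrial and UMI filters 562 were uveal meshwork cells, 170 in the NC-Foxc2-/- library and 392 in the control library, which held 11656 and 11285 barcodes before the filters. The levels of these 10 genes chose the cells and are given as a description only.

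NC-Foxc2-/- mice were Foxc2 flox/flox with Wnt1Cre+, in which Cre driven by Wnt1 acts in the neural crest lineage. Control mice were Foxc2 flox/flox without the Cre transgene. Both groups were of mixed strain and labelled 4 weeks old (3 to 4 weeks in the protocol), the NC-Foxc2-/- mice were chosen for moderate ocular phenotypes, and tissue of 4 to 6 mice was pooled into 1 library per condition after removal of the iris. The mice in a pool carry no mark of their own, so there is no test between the conditions, and every difference is one between these libraries. Intervals are 95% exact Poisson intervals for levels and exact binomial (Clopper-Pearson) intervals for shares and ratios, and cover counting error only.

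The trabecular meshwork lies in the angle between iris and cornea and drains the aqueous humor into Schlemm's canal. Its innermost layer, the uveal meshwork, is a loose net of beams next to the ciliary muscle and is the first layer that the fluid crosses, before the corneoscleral beams and the juxtacanalicular tissue beside the canal. Most of these cells derive from the neural crest, and the forkhead factors Foxc1 and Foxc2 are required for the anterior segment to form.

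The uveal cells had a median of 5934 UMIs in the NC-Foxc2-/- library (interquartile range 4912 to 7255) and 5828 in the control library (4920 to 6843), and summed to 1149023 UMIs in NC-Foxc2-/- and 2703514 in control. Over all barcodes passing the filters the medians were 6835 UMIs in NC-Foxc2-/- and 8078 in control. The libraries shared 52 barcodes, of which none was a uveal cell in both and 1 was a uveal cell in either. Xist, which marks female cells, was at 227 CPM (UMIs per 1000000 UMIs summed over the class) in NC-Foxc2-/- and 257 CPM in control uveal cells, and Ddx3y, on the Y chromosome, at 98.3 CPM in NC-Foxc2-/- and 123 CPM in control, so that both pools held both sexes. Over all barcodes the ratio of NC-Foxc2-/- to control was 1.93 for Xist and 0.685 for Ddx3y, and the sex makeup of the pools and the genotype cannot be told apart.

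Lypd1, a Ly6-family protein known to modulate nicotinic acetylcholine receptors, lies on chr1:125867622-125913101 (minus strand, mm10). It was at 439.5 CPM (402 to 480) in NC-Foxc2-/- uveal cells and 548 CPM (520 to 576) in control ones. Col23a1, a transmembrane collagen on chr11:51289920-51583918 (plus strand), was at 364 CPM in NC-Foxc2-/- and 374 CPM in control uveal cells. In leukocytes, which should lack both, Lypd1 was at 0 CPM in the NC-Foxc2-/- library and 12.0 CPM in the control library, and Col23a1 at 7.72 CPM in NC-Foxc2-/- and 16.0 CPM in control.

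Acta2, smooth muscle actin (chr19:34241090-34255590, minus strand) and the marker of these cells that the rule did not use, was higher in them than in the neighbouring meshwork cells and fibroblasts of both libraries. It was at 890 CPM (837 to 947) in NC-Foxc2-/- and 957 CPM (921 to 995) in control uveal cells. Trabecular beam cells, defined by 2 or more UMIs each of Edn3 and Gpc3, held 328 CPM in the NC-Foxc2-/- library and 489.7 CPM in control, and juxtacanalicular cells, defined by 2 or more of Myoc and of Chil1, held 277 CPM in NC-Foxc2-/- and 408 CPM in control. Fibroblasts, defined by 2 or more of Pi16 and of Clec3b and at least 5 together, held 117 CPM in NC-Foxc2-/- and 264 CPM in control. Smooth muscle cells, defined by 2 or more UMIs of Myh11 and 5 or more of Acta2, held far more, at 6322 CPM in NC-Foxc2-/- and 9148 CPM in control. Of other muscle genes, Tagln and Csrp1 are given among the high genes below, while the uveal cells held Myh11, the smooth muscle myosin, at 35.7 CPM in NC-Foxc2-/- and 31.1 CPM in control, Des, desmin, at 8.70 CPM in NC-Foxc2-/- and 21.1 CPM in control, and Actg2, enteric actin, at 0 UMIs in NC-Foxc2-/- and 12 UMIs in control cells. Lypd1 and Col23a1 are in every cell by the rule, so of the markers of the label only Acta2 bears on it. Barcodes that failed the rule on Lypd1 alone held Acta2 at 885 CPM in NC-Foxc2-/- and 527 CPM in control. Those failing on Col23a1 alone held it at 797 CPM in NC-Foxc2-/- and 1160 CPM in control, so Acta2 was not particular to cells passing the rule. The counts hold no position of a cell in the tissue.

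Many barcodes lay close to the rule at Lypd1. Of the uveal cells, 67 of 170 in NC-Foxc2-/- and 117 of 392 in control held just 1 Lypd1 UMI, and 435 NC-Foxc2-/- and 572 control barcodes more met every criterion except that they held none. On Col23a1 alone 53 NC-Foxc2-/- and 131 control barcodes failed, and on Pi16 and Clec3b alone 10 NC-Foxc2-/- and 78 control barcodes. As a description of these edges, the levels of the 15 genes with the largest ratios over the neighbouring classes (named below) were summed. The sum was 3436 CPM in NC-Foxc2-/- and 4661 CPM in control uveal cells with 2 or more Lypd1 UMIs, 2856 CPM in NC-Foxc2-/- and 4315 CPM in control among those with 1, and 1057 CPM in NC-Foxc2-/- and 1908 CPM in control among barcodes with none. It was 1973 CPM in NC-Foxc2-/- and 3317 CPM in control among barcodes failing on Col23a1 alone and 530.4 CPM in NC-Foxc2-/- and 846 CPM in control beam cells. These genes were chosen for high levels in uveal over beam, juxtacanalicular and fibroblast cells, which fixes the order of those classes. Barcodes without Lypd1 could also belong to the juxtacanalicular class, so that choice may set part of their lower sum. Among the barcodes without Lypd1, Myoc, the juxtacanalicular marker myocilin, was at 357 CPM in NC-Foxc2-/- and 347 CPM in control, against 78.3 CPM in NC-Foxc2-/- and 90.3 CPM in control uveal cells. Chil1 was at 419 CPM in NC-Foxc2-/- and 223 CPM in control among them, against 54.8 CPM in NC-Foxc2-/- and 21.1 CPM in control uveal cells. Whether these barcodes mix cell types was not tested. Barcodes failing on Pi16 and Clec3b alone had a sum of 214 CPM in NC-Foxc2-/- and 723 CPM in control and Acta2 at 15.9 CPM in NC-Foxc2-/- and 6.48 CPM in control.

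**Figure D1:**
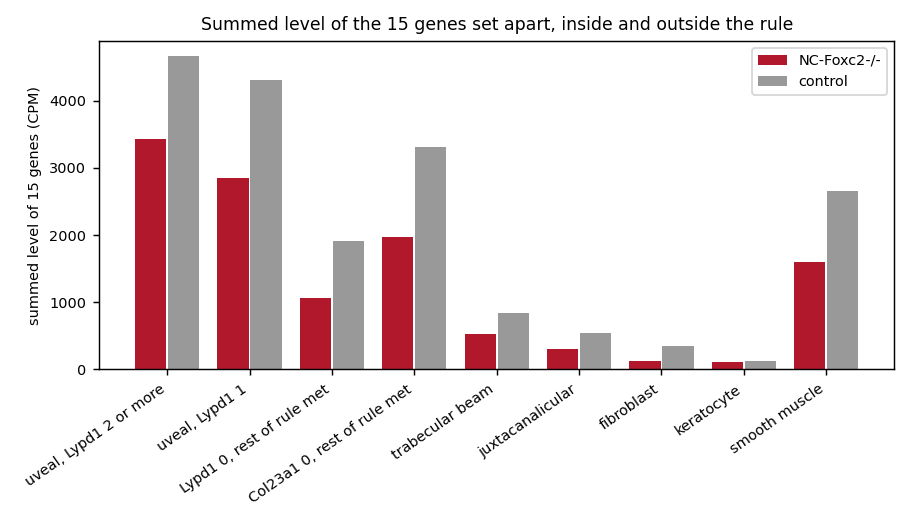
Summed level in CPM (bars) of the 15 genes with the largest ratios over the neighbouring classes, in uveal cells by Lypd1 UMIs, in barcodes just outside the rule and in other classes of the NC-Foxc2-/- (red) and control (grey) library. The sum is 3436 CPM in NC-Foxc2-/- and 4661 CPM in control uveal cells with 2 or more Lypd1 UMIs, 1057 CPM in NC-Foxc2-/- and 1908 CPM in control among barcodes without Lypd1 and 530.4 CPM in NC-Foxc2-/- and 846 CPM in control beam cells.

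Uveal cells made up a smaller share of the NC-Foxc2-/- library. They were 1.64% of its barcodes (170 of 10399, 1.40 to 1.90) and 3.78% of the control barcodes (392 of 10369, 3.42 to 4.17), a ratio of 0.432 (0.359 to 0.519). Since the rule needs at least 1 UMI of both genes, every barcode was also thinned to 3000 UMIs before the rule was applied, leaving out 1392 shallower NC-Foxc2-/- and 843 control barcodes. The shares were then 0.955% in NC-Foxc2-/- (86 of 9007) and 2.29% in control (218 of 9526), a ratio of 0.417 (0.321 to 0.538). With 2 or more UMIs required of Lypd1 and of Col23a1, 71 NC-Foxc2-/- and 196 control cells were left, at 0.683% of the NC-Foxc2-/- and 1.89% of the control barcodes. Beam cells numbered 403 in NC-Foxc2-/- and 433 in control, juxtacanalicular cells 172 in NC-Foxc2-/- and 187 in control, and fibroblasts 557 in NC-Foxc2-/- and 401 in control. Since the rule needs Lypd1 and Col23a1 in each cell, fewer cells of the type and fewer cells reaching the rule cannot be told apart, and the part of dissection and of the choice of mice was not tested.

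Against beam, juxtacanalicular and fibroblast cells, 81 of 5481 genes (1.48%) were 2-fold or more higher in uveal cells of both libraries, Lypd1 and Col23a1 among them, and 44 (0.803%) were at 0.5-fold or less. These are descriptions of classes cut by marker genes, without a test. The largest ratio was that of Gpr165, an orphan G protein-coupled receptor on chrX:96713441-96719388 (plus strand), at 76.6 CPM in NC-Foxc2-/- and 99.5 CPM in control uveal cells, against at most 2.59 CPM in any of the 3 classes. Its ratio to beam cells was 29.6 (13.8 to 75.8) in NC-Foxc2-/- and 84.3 (32.5 to 312) in control. Wnt6, a secreted Wnt ligand, was at 160.1 CPM in NC-Foxc2-/- and 155 CPM in control uveal cells, against 11.5 CPM in NC-Foxc2-/- and 12.7 CPM in control beam cells, a ratio to beam cells of 13.99 (9.52 to 21.2) in NC-Foxc2-/- and 12.2 (8.89 to 17.1) in control. Sostdc1, a secreted antagonist of BMP and Wnt signals, was at 423 CPM in NC-Foxc2-/- and 375 CPM in control uveal cells, against 65.7 CPM in NC-Foxc2-/- and 57.3 CPM in control beam cells.

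Flt1, a VEGF receptor best known from endothelium, was at 64.4 CPM in NC-Foxc2-/- and 86.2 CPM in control uveal cells, against 5.91 CPM in NC-Foxc2-/- and 5.31 CPM in control beam cells. With every cell thinned to 3000 UMIs, 34 of 166 NC-Foxc2-/- and 81 of 388 control uveal cells held a Flt1 UMI (unthinned 49 of 170 in NC-Foxc2-/- and 114 of 392 in control), against 1 of 174 NC-Foxc2-/- and 1 of 118 control leukocytes, whose median depths before thinning were 5873 UMIs in NC-Foxc2-/- and 6958 in control. Defining endothelial genes were at or near 0 in the same uveal cells, with 1 NC-Foxc2-/- UMI and 2 control UMIs of Pecam1 and 1 UMI of Kdr in each library, and Cdh5 is at 0 by the rule. Emcn, the sialomucin endomucin, was an exception at 68.8 CPM in NC-Foxc2-/- and 113 CPM in control, while the level was 116 CPM in NC-Foxc2-/- and 125 CPM in control beam cells. Stc1, a secreted glycoprotein hormone that acts on calcium and phosphate, was at 176 CPM in NC-Foxc2-/- and 166 CPM in control uveal cells, against 9.60 CPM in NC-Foxc2-/- and 9.74 CPM in control beam cells. Endothelial cells, defined by 2 or more UMIs of Cdh5 and 0 of Ptprc, held more Stc1, at 316 CPM in NC-Foxc2-/- and 463 CPM in control. Plcxd3, of the phospholipase C family, was at 47.9 CPM in NC-Foxc2-/- and 62.9 CPM in control uveal cells and 3.69 CPM in NC-Foxc2-/- and 5.02 CPM in control beam cells.

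Some of these genes were also high in smooth muscle. Sostdc1 was at 143 CPM in NC-Foxc2-/- and 278 CPM in control smooth muscle cells, lower than in uveal cells. Csrp1, a LIM protein that bundles actin, was at 1207 CPM in NC-Foxc2-/- and 2578 CPM in control uveal cells, and at 1004 CPM in NC-Foxc2-/- and 1606 CPM in control smooth muscle cells, against 301 CPM in NC-Foxc2-/- and 562 CPM in control beam cells. Gpr137b, a lysosomal membrane protein, was at 157 CPM in NC-Foxc2-/- and 202 CPM in control uveal and 243 CPM in NC-Foxc2-/- and 399 CPM in control smooth muscle cells. Others were not, as Gpr165 was at 1.56 CPM in NC-Foxc2-/- and 0.292 CPM in control smooth muscle cells, Wnt6 at 5.11 CPM in NC-Foxc2-/- and 8.31 CPM in control and Lhfpl3, a tetraspan membrane protein, at 2.00 CPM in NC-Foxc2-/- and 1.6 CPM in control, while Lhfpl3 was at 63.5 CPM in NC-Foxc2-/- and 61.8 CPM in control uveal cells. Nkain3, Ogfrl1, Sptssb, Irak2, Grb14 and Nnat complete the 15 genes. The smallest ratio of these 6 over the 3 classes and both libraries ran from 3.94 for Nnat to 5.75 for Nkain3.

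**Figure D2:**
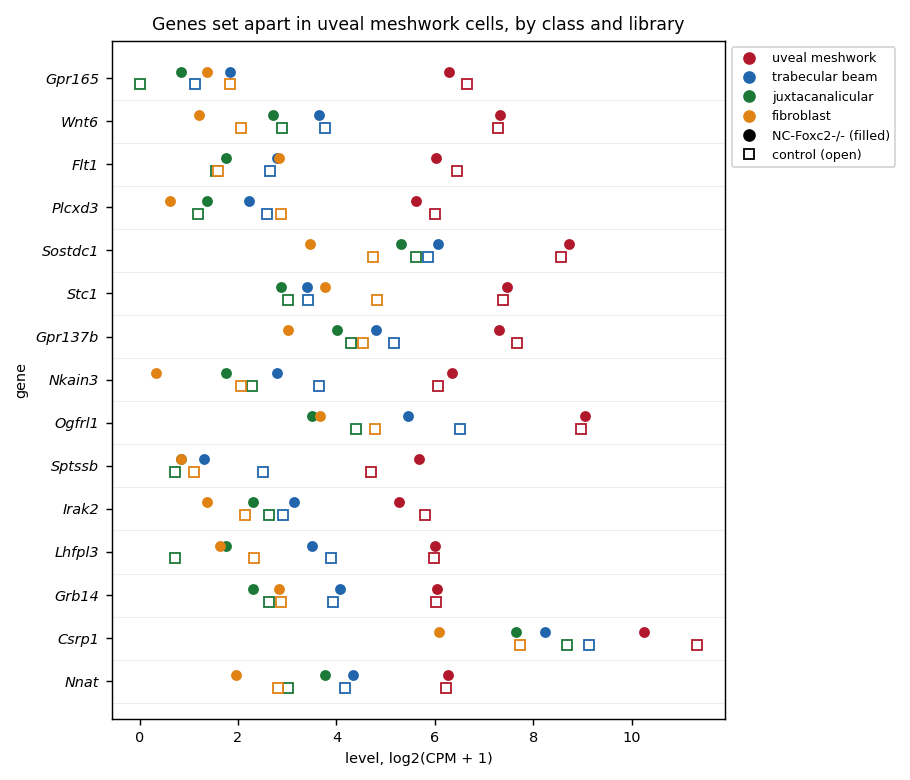
Levels, as log2(CPM + 1), of the 15 genes in uveal, beam, juxtacanalicular and fibroblast cells (colours) of the NC-Foxc2-/- (filled) and control (open) library. The choice of these genes fixes that the uveal value is the highest of the 4 classes in both libraries. Gpr165 is at 76.6 CPM in NC-Foxc2-/- and 99.5 CPM in control uveal cells against at most 2.59 CPM in the other 3.

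Further genes of the 81 were a transcription factor, growth factors and their modulators. Tfap2b, an AP-2 factor of the neural crest, was at 317 CPM in NC-Foxc2-/- and 239 CPM in control uveal cells, against 70.5 CPM in NC-Foxc2-/- and 80.6 CPM in control beam cells, and Rorb, a nuclear receptor, was at 111 CPM in NC-Foxc2-/- and 90.3 CPM in control against 9.60 CPM in NC-Foxc2-/- and 9.74 CPM in control beam cells. Of the Wnt pathway list 3 of the 14 genes tested were among them, namely Wnt6, Wnt4 (102 CPM in NC-Foxc2-/- and 208 CPM in control, with 33.2 CPM in NC-Foxc2-/- and 82.7 CPM in control beam cells) and Rspo3, which potentiates Wnt signals (133 CPM in NC-Foxc2-/- and 142 CPM in control, with 52.8 CPM in NC-Foxc2-/- and 44.3 CPM in control beam cells). Of the angiogenic and vascular ligand list 2 of 21 were, Vegfc, the lymphatic growth factor (109.7 CPM in NC-Foxc2-/- and 112 CPM in control, with 28.1 CPM in NC-Foxc2-/- and 41.9 CPM in control beam cells), and Hgf, hepatocyte growth factor (67.9 CPM in NC-Foxc2-/- and 43.3 CPM in control, with 18.1 CPM in NC-Foxc2-/- and 19.5 CPM in control beam cells). Of the contractile list 2 of 21 were, Csrp1 and Tagln, an actin-binding protein at 1948 CPM in NC-Foxc2-/- and 1441 CPM in control uveal and 533 CPM in NC-Foxc2-/- and 552 CPM in control beam cells.

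Of the list of cholesterol and fatty acid synthesis 2 of 13 tested genes were among them. Hmgcs1 was at 244 CPM in NC-Foxc2-/- and 224 CPM in control uveal cells, against 81.6 CPM in NC-Foxc2-/- and 76.8 CPM in control beam cells, and Idi1 was at 121 CPM in NC-Foxc2-/- and 120.2 CPM in control uveal cells. Other enzymes of the 81, chosen after their values were seen, follow. Of the monoamine oxidases, Maob was at 64.4 CPM in NC-Foxc2-/- and 47.4 CPM in control uveal cells, against 9.97 CPM in NC-Foxc2-/- and 8.27 CPM in control beam cells, and Maoa was at 61.8 CPM in NC-Foxc2-/- and 44.4 CPM in control uveal cells. Chst2, Chst15, Hs3st3a1 and Hs3st3b1 are sulfotransferases of glycosaminoglycans, and Chst2 was at 433 CPM in NC-Foxc2-/- and 468 CPM in control uveal cells, against 130 CPM in NC-Foxc2-/- and 161 CPM in control beam cells. Cemip, which takes part in hyaluronan breakdown, was at 128 CPM in NC-Foxc2-/- and 107 CPM in control against 25.9 CPM in NC-Foxc2-/- and 30.1 CPM in control beam cells. Dio3, the deiodinase that inactivates thyroid hormone, was at 46.1 CPM in NC-Foxc2-/- and 30.0 CPM in control against 9.60 CPM in NC-Foxc2-/- and 8.27 CPM in control beam cells.

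Among the 44 genes that were low in uveal cells were 1 of 9 tested fibrillar and associated collagens and 2 of 19 elastic fibre genes. Col14a1, a fibril-associated collagen, was at 10.4 CPM in NC-Foxc2-/- and 2.96 CPM in control uveal cells, against 161 CPM in NC-Foxc2-/- and 62.6 CPM in control beam cells and 937 CPM in NC-Foxc2-/- and 618 CPM in control fibroblasts. Chad, chondroadherin, was at 4.35 CPM in NC-Foxc2-/- and 2.96 CPM in control against 340.1 CPM in NC-Foxc2-/- and 293 CPM in control juxtacanalicular cells, and Thbs4, a thrombospondin, at 14.8 CPM in NC-Foxc2-/- and 3.70 CPM in control against 398 CPM in NC-Foxc2-/- and 299 CPM in control juxtacanalicular cells. Of the small leucine-rich proteoglycan list 4 of the 10 genes tested were low, Chad, Ecm2, Aspn (20.02 CPM in NC-Foxc2-/- and 8.51 CPM in control, with 135 CPM in NC-Foxc2-/- and 95.1 CPM in control beam cells) and Prelp (48.7 CPM in NC-Foxc2-/- and 35.5 CPM in control, with 107 CPM in NC-Foxc2-/- and 122 CPM in control beam cells). Timp1, an inhibitor of matrix metalloproteinases, was at 9.57 CPM in NC-Foxc2-/- and 14.4 CPM in control against 130.4 CPM in NC-Foxc2-/- and 85.3 CPM in control beam cells. Of the enzymes that make retinoic acid, Aldh1a1 was at 3.48 CPM in NC-Foxc2-/- and 8.88 CPM in control uveal cells, against 59.1 CPM in NC-Foxc2-/- and 84.7 CPM in control beam cells, and Aldh1a2 was at 7.83 CPM in NC-Foxc2-/- and 15.2 CPM in control uveal cells, against 108 CPM in NC-Foxc2-/- and 172 CPM in control beam cells. Myoc and Chil1 were also among the 44, but they define the juxtacanalicular class.

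Since Tfap2b was among the 81 genes, the promoter windows of Lypd1, Col23a1, Acta2 and the 15 genes were searched for the AP-2 motif GCCNNNGGC, which reads the same on both strands, and for the forkhead motif GTAAACA on both strands. The windows run from 250 bases before to 50 after a RefSeq start (GRCm38.p6), and 13 of the 18 genes matched to 16 windows. The AP-2 motif was in a window of 5 of the 13 genes, Lypd1, Acta2, Wnt6, Flt1 and Irak2. It was in 5 of the 16 windows and in 16.6% of all 32851 windows. The forkhead motif was in 0 of the 13 and in 3.65% of all windows. A match describes the letters and is no measurement of binding. Only windows with an AP-2 match are shown. They are of Lypd1, a gene of the rule (chr1:125912879-125913178, minus strand, 1 of its 3 windows), and of Acta2, the check of the label (chr19:34255324-34255623, minus strand). The last is of Wnt6, the secreted protein with the largest ratio (chr1:74771642-74771941, plus strand). Col23a1, also of the rule, and Gpr165, with the largest ratio of all, had no AP-2 match. The match is in capitals, 5′ to 3′.
Lypd1: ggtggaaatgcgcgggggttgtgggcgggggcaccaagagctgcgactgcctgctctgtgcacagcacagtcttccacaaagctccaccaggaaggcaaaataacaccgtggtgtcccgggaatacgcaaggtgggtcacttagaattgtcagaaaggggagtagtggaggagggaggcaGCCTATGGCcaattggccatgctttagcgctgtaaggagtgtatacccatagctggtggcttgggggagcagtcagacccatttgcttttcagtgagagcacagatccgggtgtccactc
Acta2: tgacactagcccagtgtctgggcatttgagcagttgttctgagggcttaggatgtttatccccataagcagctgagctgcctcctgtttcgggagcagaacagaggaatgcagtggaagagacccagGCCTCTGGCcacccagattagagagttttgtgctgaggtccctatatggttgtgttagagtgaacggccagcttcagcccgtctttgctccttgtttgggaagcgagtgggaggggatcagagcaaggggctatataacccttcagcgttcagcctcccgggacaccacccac
Wnt6: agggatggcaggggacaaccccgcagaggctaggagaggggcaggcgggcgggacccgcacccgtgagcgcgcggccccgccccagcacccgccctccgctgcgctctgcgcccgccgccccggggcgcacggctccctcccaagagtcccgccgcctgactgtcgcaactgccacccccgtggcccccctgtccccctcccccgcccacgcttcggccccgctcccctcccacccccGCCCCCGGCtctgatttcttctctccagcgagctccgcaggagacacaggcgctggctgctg

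The uveal cells varied widely in Acta2, and several contractile genes varied with it. In NC-Foxc2-/- 43 of 170 cells held no Acta2 UMI, 47 were above 0 but under 5 per 10,000 UMIs and 80 were at 5 or more, and in control the numbers were 123, 111 and 158 of 392. Median depth in these ranges, from low to high, was 5349, 6164 and 6196 UMIs in NC-Foxc2-/- and 5016, 6247 and 5952 in control, so the lowest range was also the shallowest. Tagln was at 692, 1393 and 2822 CPM from the low to the high range in NC-Foxc2-/- cells and at 700.1, 948 and 2321 CPM in control cells. Myl9, a myosin light chain, was at 236, 306 and 639 CPM in NC-Foxc2-/- and at 232, 339 and 856 CPM in control cells. Cald1, caldesmon, was nearly level, at 999, 1098 and 1066 CPM in NC-Foxc2-/- and 1081, 958 and 1203 CPM in control cells. These ranges are cuts of a level and not cell types.

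Beyond the contractile genes, Sostdc1 was highest in the range with most Acta2, at 282, 224 and 604 CPM from low to high in NC-Foxc2-/- and 243, 253 and 561 CPM in control cells. Myh11 was at 67.3 CPM in NC-Foxc2-/- and 73.2 CPM in control cells of the high range and at 0 CPM in NC-Foxc2-/- and 4.44 CPM in control cells of the low range. Few uveal cells held a Myh11 UMI, 13 of 170 in NC-Foxc2-/- and 17 of 392 in control. Stc1 ran the other way in control cells, at 404, 133 and 46.6 CPM, while it was at 236, 128 and 179 CPM in NC-Foxc2-/- cells. Wnt6 was at 166, 172 and 151 CPM in NC-Foxc2-/- and 151, 148 and 163 CPM in control cells. Rgs5, a pericyte gene, was at 12.4, 34.96 and 232 CPM in NC-Foxc2-/- and 0, 1.07 and 14.6 CPM in control cells, and 3 NC-Foxc2-/- cells held 91.5% of the pericyte marker UMIs.

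**Figure D3:**
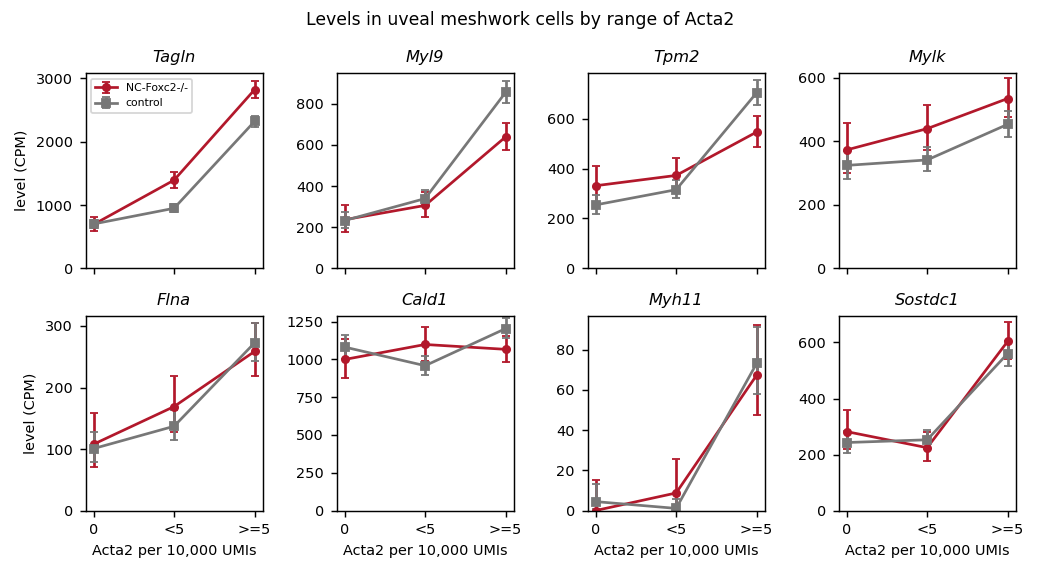
Levels in CPM, with 95% counting intervals, of 8 genes in uveal cells by range of Acta2 (0, under 5, and 5 or more per 10,000 UMIs) in the NC-Foxc2-/- (red circles) and control (grey squares) library. Tagln is at 692, 1393 and 2822 CPM from the low to the high range in NC-Foxc2-/- and at 700.1, 948 and 2321 CPM in control cells, while Cald1 is nearly level.

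Foxc2, the targeted gene (chr8:121116171-121118895, plus strand), was lower in NC-Foxc2-/- uveal cells. It was at 16.5 CPM (19 UMIs) in NC-Foxc2-/- and 72.1 CPM (195 UMIs) in control cells, a ratio of 0.229 (0.135 to 0.368). With every cell thinned to 3000 UMIs, 9 of 166 NC-Foxc2-/- cells (5.42%) and 71 of 388 control cells (18.3%) held a UMI (unthinned 19 of 170 in NC-Foxc2-/- and 123 of 392 in control), while 1 of 174 NC-Foxc2-/- and 2 of 118 control leukocytes did. The reads come from the 3′ end of the transcript, and no source used here gives the extent of the deleted segment, so the UMIs do not tell which alleles they came from. In the same contrast the ratio was 0.383 in beam cells, 0.246 in juxtacanalicular cells and 0.0149 in fibroblasts, in which control cells held 28.9, 22.6 and 35.6 CPM. Foxc1, the paralog that also acts in the anterior segment, was at 241 CPM in NC-Foxc2-/- and 163 CPM in control uveal cells, a ratio of 1.48 (1.27 to 1.72) that is under 2-fold.

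Between the conditions, 224 of the 7042 genes with at least 50 UMIs in uveal cells (3.18%) were 2-fold or more higher in NC-Foxc2-/- cells and 255 (3.62%) were at 0.5-fold or less, 479 (6.8%) in all. The median ratio of the tested genes was 0.07 on the log2 scale, and after division by it the numbers were 163 higher and 290 lower. Some of these barcodes also held markers of another cell type. In NC-Foxc2-/- 9 of 170 cells, and in control 31 of 392, held 10 or more UMIs of the markers of another type. In NC-Foxc2-/- 1 such cell held all 490 UMIs of the neutrophil genes, 3 held 91.5% of 165 pericyte marker UMIs and 2 held 98.5% of 9334 erythroid ones. In control 14 such cells held 97.4% of the 7798 epithelial marker UMIs of all uveal cells, 6 held 92.8% of 748 macrophage UMIs and 4 held 95.6% of 682 melanocyte UMIs. The 15 lowest genes over all uveal cells were all epithelial, and the highest were the neutrophil genes S100a8 and S100a9 and the pericyte gene Rgs5.

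The genes below are therefore given for the 161 NC-Foxc2-/- and 361 control uveal cells without such markers, here called unmixed, a choice made after the data were seen. Their median depths were 5901 UMIs in NC-Foxc2-/- and 5727 in control, while that of the cells left out was 7671 in NC-Foxc2-/- and 13835 in control. In unmixed cells 165 of 6427 genes (2.57%) were 2-fold or more higher in NC-Foxc2-/- and 129 (2.01%) were at 0.5-fold or less, and the median ratio was 0.05 on the log2 scale. The 15 highest and 15 lowest genes by ratio were taken, of those that reached 100 UMIs over both libraries and 50 CPM in the higher one. Of these 30 genes 27 kept a 2-fold difference in the same direction when the 2 cells with most UMIs of the gene were left out of each library, which was also added after the data were seen. Over all uveal cells 27 of the 30 were past 2-fold as well, and Ifi27l2a, Mmp3 and Tnmd were not, at 1.01, 0.538 and 0.666.

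Of the lowest genes other than Foxc2, several with roles in signalling and adhesion were lower in the neighbouring classes too. Bdnf, the brain-derived neurotrophic factor (chr2:109674700-109727007, plus strand), was at 112 CPM (120 UMIs) in NC-Foxc2-/- and 330.4 CPM (711 UMIs) in control unmixed cells, a ratio of 0.340 (0.278 to 0.413). In beam, juxtacanalicular and fibroblast cells the ratio of Bdnf was 0.560, 0.573 and 0.497. Nectin2, an adhesion molecule of cell junctions, was at 30.9 CPM in NC-Foxc2-/- and 122 CPM in control unmixed cells, a ratio of 0.253 (0.170 to 0.364), against 0.769, 0.400 and 0.530 in the 3 classes in that order. Mpp7, a scaffold protein of cell polarity, was at 30.0 CPM in NC-Foxc2-/- and 99.9 CPM in control with a ratio of 0.300 (0.200 to 0.436), against 0.313, 0.345 and 0.582. Plekhf1, an endosomal adaptor, was at 59.0 CPM in NC-Foxc2-/- and 168 CPM in control with a ratio of 0.352 (0.265 to 0.461), against 0.725, 0.698 and 0.772.

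Cyp1b1, the cytochrome P450 mutated in human primary congenital glaucoma (chr17:79701537-79715061, minus strand), was at 21.5 CPM (23 UMIs) in NC-Foxc2-/- and 76.7 CPM (165 UMIs) in control unmixed cells, a ratio of 0.281 (0.173 to 0.436). In beam, juxtacanalicular and fibroblast cells the ratio of Cyp1b1 was 0.897, 1.04 and 1.18. Dbp, a clock-controlled transcription factor, was at 26.2 CPM in NC-Foxc2-/- and 83.7 CPM in control, a ratio of 0.313 (0.203 to 0.468), against 0.8497, 0.895 and 0.977 in these classes. Fkbp10, a prolyl isomerase that folds procollagen, was at 21.5 CPM in NC-Foxc2-/- and 59.0 CPM in control with a ratio of 0.365 (0.223 to 0.572). Over all uveal cells the ratio was 0.460 for Fkbp10 and 0.387 for Dbp. Over 9 alternatives of the processing Fkbp10 ran from 0.365 to 0.842 and was past 2-fold in 6. Dbp ran from 0.313 to 0.626 over these and was past 2-fold in 8. Upp1, uridine phosphorylase, had a ratio of 0.292 (0.168 to 0.482) and Neat1, the long noncoding RNA of paraspeckles, of 0.350 (0.276 to 0.440), with ratios under 1 in the 3 classes too. Whether the ratio in uveal cells differs from that of another class was not tested.

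Of the remaining lowest ratios, those of Tac1 and Mmp3 rested on very few cells. Tac1, the precursor of substance P, had 5 UMIs in NC-Foxc2-/- and 153 in control unmixed cells (ratio 0.0658, 0.0211 to 0.157), of which 2 control cells held 109. Mmp3, a matrix metalloproteinase, had 10 UMIs in NC-Foxc2-/- and 111 in control unmixed cells, of which 2 control cells held 110, and without the 2 highest cells of each library 4 NC-Foxc2-/- UMIs and 1 control UMI were left. Mbd1, a methyl-CpG-binding protein, had 26 UMIs in NC-Foxc2-/- and 166 in control unmixed cells, with 68 of the control UMIs in 2 cells. Tnmd, tenomodulin, was at 20.6 CPM in NC-Foxc2-/- and 66.5 CPM in control (ratio 0.310, 0.188 to 0.488), while over all uveal cells its ratio was 0.666 and under a looser rule 1.81. Gm12840, a predicted gene, was at 9.36 CPM in NC-Foxc2-/- and 54.4 CPM in control (ratio 0.172, 0.0805 to 0.328).

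Of the highest ratios, those of 3 genes were above 1 in every other class too, though for Ost4 and Lamtor3 not past 2-fold in all of them. Ost4, of the oligosaccharyltransferase, had a ratio of 3.08 (2.55 to 3.72) and one between 1.80 and 2.55 in the 7 other classes. Lars2, the mitochondrial leucyl-tRNA synthetase, had a ratio of 2.49 (2.11 to 2.93) and one between 2.12 and 3.80, and Lamtor3, of the Ragulator complex, 2.77 (2.04 to 3.78) and one between 1.29 and 1.96.

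Csf1, the growth factor of macrophages (chr3:107741048-107760469, minus strand), was at 290.2 CPM (310 UMIs) in NC-Foxc2-/- and 87.4 CPM (188 UMIs) in control unmixed cells, a ratio of 3.32 (2.76 to 4.00). Its ratio was 1.46, 1.37 and 2.93 in beam, juxtacanalicular and fibroblast cells. Id2, an inhibitor of helix-loop-helix factors and a target of BMP signals, was at 284 CPM in NC-Foxc2-/- and 108 CPM in control unmixed cells (ratio 2.62, 2.20 to 3.12), against 2.03, 1.87 and 1.12 in these classes. A2m, the protease inhibitor alpha-2-macroglobulin, was at 205 CPM in NC-Foxc2-/- and 70.2 CPM in control (ratio 2.92, 2.36 to 3.62), with 70 of its 219 NC-Foxc2-/- UMIs in 2 cells, and Txnip, which binds thioredoxin, was at 148 CPM in NC-Foxc2-/- and 58.6 CPM in control (ratio 2.53, 1.99 to 3.22). Ifi27l2a, an interferon-induced gene, was at 129 CPM in NC-Foxc2-/- and 49.3 CPM in control (ratio 2.62, 2.02 to 3.41), although over all uveal cells its ratio was 1.01. Peg10, an imprinted gene of retrotransposon origin, had a ratio of 3.15 (2.15 to 4.67), with 29 of its 72 NC-Foxc2-/- UMIs in 2 cells. Without the 2 highest cells of each library it was at 2.34 (1.47 to 3.74). Over 9 alternatives of the processing it ran from 1.05 to 3.71 and was past 2-fold in 7. Mrps28, of the mitochondrial ribosome, had a ratio of 2.46 (1.63 to 3.74), and Kbtbd2, an adaptor of a ubiquitin ligase, 2.43 (1.63 to 3.65). Prg4, lubricin, had a ratio of 2.55 (1.72 to 3.79), and of 1.6 without the 2 highest cells of each library.

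**Figure D4:**
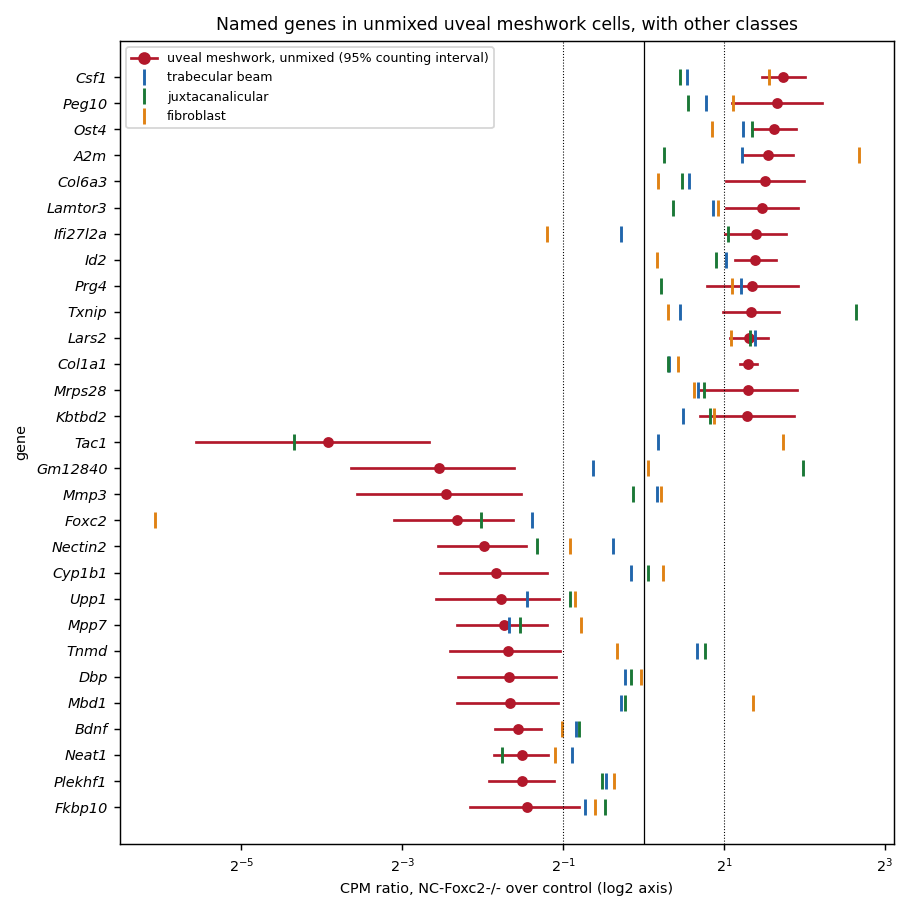
CPM ratio, NC-Foxc2-/- over control, of 29 of these 30 genes in unmixed uveal cells with 95% counting intervals, and of the same genes in beam, juxtacanalicular and fibroblast cells. The points are uveal cells and the ticks the other classes, on a log2 axis with dotted lines at 0.5 and 2, and the ticks lie near the point for Lars2 (2.49 in uveal cells) and near 1 for Cyp1b1 (0.281 in uveal cells).

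Most collagens had higher levels in the NC-Foxc2-/- uveal cells, within 2-fold for all but Col1a1, Col6a3 and Col8a2. Of the 8 fibrillar and associated collagens tested 7 had a ratio above 1, with a median of 0.61 on the log2 scale, against 3550 of all 6427 genes. Col1a1, the main chain of collagen I, passed 2-fold, at 1441 CPM (1539 UMIs) in NC-Foxc2-/- and 585 CPM (1258 UMIs) in control unmixed cells, a ratio of 2.47 (2.29 to 2.66). Of its NC-Foxc2-/- UMIs 2 cells held 681, and without the 2 highest cells of each library the ratio was 1.59 (1.45 to 1.73). Col1a2 had a ratio of 1.64, Col5a1 of 1.98 and Col12a1 of 1.80, while Col11a1 was at 0.687. Without the 2 highest cells of each library Col1a2 was at 1.28, Col5a1 at 1.76, Col12a1 at 1.72 and Col11a1 at 0.495. The collagen VI chains Col6a1, Col6a2 and Col6a3 had ratios of 1.59, 1.79 and 2.85 (2.04 to 4.00), and Col23a1, the other tested gene of their list, was used by the rule. Without the 2 highest cells of each library the collagen VI chains were at 1.31, 1.33 (0.959 to 1.83) and 2.91. In the basement membrane list 10 of 15 genes were above 1 (median 0.22), with the network collagen Col8a2 past 2-fold at 291 CPM in NC-Foxc2-/- and 143 CPM in control (ratio 2.04, 1.74 to 2.40), and at 1.80 (1.52 to 2.13) without the 2 highest cells of each library. Col18a1, the lowest of that list, was at 0.510 (0.296 to 0.841), and at 0.454 without the 2 highest cells of each library.

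Of 19 elastic fibre genes 11 were above 1, against 3550 of all 6427 genes, and 0 passed 2-fold (median 0.09). They ran from the microfibril protein Mfap5 at 0.529 to Ltbp2, a latent TGF-beta binding protein, at 1.89. Of 7 small leucine-rich proteoglycans 4 were above 1 and 0 passed 2-fold (median 0.10). Of 13 matricellular proteins 10 were above 1 (median 0.31), with Matn4, a matrilin, past 2-fold at 2.88 (1.73 to 4.84), and at 1.77 (0.953 to 3.28) without the 2 highest cells of each library. Of 16 matrix proteases and inhibitors 7 were above 1 (median -0.07), with Mmp3 the lone gene at 0.5-fold or less, and the protease inhibitor Serpine2 was at 1917 CPM in NC-Foxc2-/- and 3458 CPM in control (ratio 0.555, 0.528 to 0.582).

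Of the 13 tested genes of neuropeptides, hormones and their receptors 5, against 3550 of all 6427 genes, had a ratio above 1, 3 were at 0.5-fold or less and 1 at 2-fold or more, with a median of -0.76 on the log2 scale. Besides Bdnf, the low genes were Penk, the enkephalin precursor, at 846 CPM in NC-Foxc2-/- and 1778 CPM in control unmixed cells (ratio 0.476, 0.442 to 0.512), and Edn3, endothelin 3, at 53.4 CPM in NC-Foxc2-/- and 109 CPM in control (ratio 0.489, 0.359 to 0.655), which the rule limits. Over all uveal cells the ratio of Penk was 0.519 and that of Edn3 0.555, and without the 2 highest cells of each library Edn3 was at 0.517 (0.371 to 0.708). Gdnf, the glial cell line-derived neurotrophic factor, was at 0.544 and Adm, adrenomedullin, at 0.590. Cartpt, the gene at 2-fold or more, had 66 UMIs in NC-Foxc2-/- and 10 in control unmixed cells, of which 2 NC-Foxc2-/- cells held 62. Pthlh, the parathyroid hormone-related protein, was at 1.95 (1.12 to 3.39) in unmixed cells and 0.333 over all uveal cells, and Npr2, a natriuretic peptide receptor, at 1.47 (0.950 to 2.24) in unmixed cells. Of 15 genes of nitric oxide, cyclic nucleotides and vasoactive receptors 7 were above 1 (median -0.06) and 2 at 0.5-fold or less, Adra2a, the alpha-2A adrenergic receptor (17.8 CPM in NC-Foxc2-/- and 48.3 CPM in control, ratio 0.368, 0.213 to 0.604), and Pde10a, a phosphodiesterase (90.8 CPM in NC-Foxc2-/- and 229.6 CPM in control, ratio 0.396, 0.315 to 0.493).

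Semaphorins, netrins, slits and ephrins were mostly at higher levels, with 14 of 18 tested genes above 1 (3550 of 6427 over all genes) and a median of 0.41 on the log2 scale. Against 165 of all 6427 genes, 4 of the 18 were at 2-fold or more. These were Ntn4, a netrin of basement membranes (123 CPM in NC-Foxc2-/- and 54.4 CPM in control, ratio 2.26, 1.74 to 2.92), the guidance ligand Slit3 (ratio 2.34, 1.53 to 3.61), the netrin receptor Unc5b (ratio 2.28, 1.44 to 3.62) and the semaphorin receptor component Plxna4 (ratio 2.39, 1.46 to 3.96). Of 22 TGF-beta, BMP and activin genes 16 were above 1 (median 0.30), with Id2 and Gdf10, a BMP-family ligand (ratio 2.44, 1.55 to 3.85), past 2-fold. Inhba, the activin subunit, was at 22.5 CPM in NC-Foxc2-/- and 58.6 CPM in control unmixed cells (ratio 0.384, 0.237 to 0.597), with 53 of its 126 control UMIs in 2 cells. Of 19 Wnt genes 9 were above 1 (median -0.05), with Rspo1, a Wnt potentiator (ratio 0.422, 0.181 to 0.877), and Sfrp2, a Wnt antagonist (ratio 0.470, 0.243 to 0.851), at 0.5-fold or less and Fzd7, a receptor (ratio 2.36, 1.57 to 3.56), past 2-fold. Of the control UMIs of Sfrp2, 2 cells held 39 of 60, and its ratio was 0.576 (0.190 to 1.48) without the 2 highest cells of each library and 0.835 over all uveal cells. Wnt6, among the genes that set these cells apart, was at 163 CPM in NC-Foxc2-/- and 177 CPM in control (ratio 0.923, 0.767 to 1.11), and Wnt4 at 107 CPM in NC-Foxc2-/- and 207 CPM in control (ratio 0.516, 0.416 to 0.635). Of 6 Notch genes 2 were above 1 and 0 passed 2-fold (median -0.37).

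Of 20 contractile genes 12 had a ratio above 1 (median 0.11), near the share over all genes (3550 of 6427, median 0.05). Acta2 was at 863 CPM in NC-Foxc2-/- and 907 CPM in control unmixed cells (ratio 0.952, 0.879 to 1.03), and Tagln at 1914 CPM in NC-Foxc2-/- and 1496 CPM in control (ratio 1.28, 1.21 to 1.35). Csrp1 alone of the list passed the size, at 1257 CPM (1343 UMIs) in NC-Foxc2-/- and 2955 CPM (6358 UMIs) in control unmixed cells, a ratio of 0.426 (0.401 to 0.451). In beam, juxtacanalicular, fibroblast and smooth muscle cells the ratio of Csrp1 was 0.536, 0.485, 0.316 and 0.625. Of 14 anterior segment transcription factors tested 9 were above 1 (median 0.09), with Foxc2 (ratio 0.200, 0.116 to 0.326, in unmixed cells) lower and Alx4, a homeobox factor, higher at 33.7 CPM in NC-Foxc2-/- and 11.2 CPM in control (ratio 3.02, 1.75 to 5.30). Foxc1 was at 236 CPM in NC-Foxc2-/- and 185 CPM in control (ratio 1.28, 1.09 to 1.501) in unmixed cells. Of 18 glaucoma risk genes 11 were above 1 (median 0.12), and Cyp1b1 was the lone gene past 2-fold.

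Immediate early and glucocorticoid response genes were mostly at lower levels, while the stress lists beside them were divided. Over all genes 3550 of 6427 were above 1, 165 were at 2-fold or more and 129 at 0.5-fold or less. Of 22 immediate early genes 3 were above 1 and 0 passed 2-fold (median -0.23), with Dusp1, a phosphatase of MAP kinases, at 290.2 CPM in NC-Foxc2-/- and 571 CPM in control unmixed cells (ratio 0.509, 0.448 to 0.577), and Nr4a2, an orphan nuclear receptor, at 779 CPM in NC-Foxc2-/- and 1516 CPM in control (ratio 0.514, 0.476 to 0.555). Such genes also respond to tissue dissociation, and its part was not tested. Of 21 hypoxia and glycolysis genes 10 were above 1 and 0 passed 2-fold (median -0.47), and Slc2a1, a glucose transporter, was at 472 CPM in NC-Foxc2-/- and 889 CPM in control (ratio 0.531, 0.480 to 0.586). Of 16 heat shock genes and chaperones 6 were above 1 and 0 passed 2-fold (median -0.15), and Hspa5, the chaperone of the endoplasmic reticulum, was at 3323 CPM in NC-Foxc2-/- and 6432 CPM in control (ratio 0.517, 0.498 to 0.536). Of 10 metallothionein and glucocorticoid response genes 1 was above 1 (median -0.37), with the kinase Sgk1 at 0.502 (0.452 to 0.557). Of 15 cholesterol and fatty acid genes 5 were above 1 and 0 passed 2-fold (median -0.10).

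Of 23 interferon response genes 15 were above 1 (median 0.43), against 3550 of all 6427 genes, and 3 passed 2-fold, against 165 of the 6427. The 3 were Ifi27l2a, Ifit3b (ratio 3.43, 2.09 to 5.74) and Usp18 (ratio 2.22, 1.30 to 3.81). The MHC and complement list had 4 of 11 above 1 and 0 past 2-fold (median -0.19). Among 17 cytokines, chemokines and receptors (9 above 1, median 0.06) Csf1 and Tnfrsf11b, the decoy receptor osteoprotegerin (234 CPM in NC-Foxc2-/- and 111 CPM in control, ratio 2.11, 1.76 to 2.53), were higher and Cxcl2, a neutrophil chemokine, lower, with 8 UMIs in NC-Foxc2-/- and 92 in control unmixed cells, 43 of the control UMIs in 2 cells. Tnfrsf11b was at 1.90 (1.56 to 2.31) without the 2 highest cells of each library, and Cxcl2 at 0.864 over all uveal cells. Of 21 angiogenic and vascular ligands 9 were above 1 (median -0.08), with Angptl4 (ratio 0.341, 0.168 to 0.633) and Igf1 (ratio 0.491, 0.335 to 0.703) at 0.5-fold or less and Vegfc at 0.887 (0.708 to 1.11). Igf1 was at 0.541 (0.346 to 0.822) without the 2 highest cells of each library. Of 9 retinoic acid genes 6 were above 1 (median 0.04), with the carrier Rbp4 at 0.347 (0.158 to 0.685). Of 14 channel, pump and junction genes 9 were above 1 (median 0.30), with Piezo1, a mechanosensitive channel, past 2-fold at 36.5 CPM in NC-Foxc2-/- and 16.7 CPM in control (ratio 2.18, 1.35 to 3.53), and at 1.95 (1.15 to 3.30) without the 2 highest cells of each library.

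**Figure D5:**
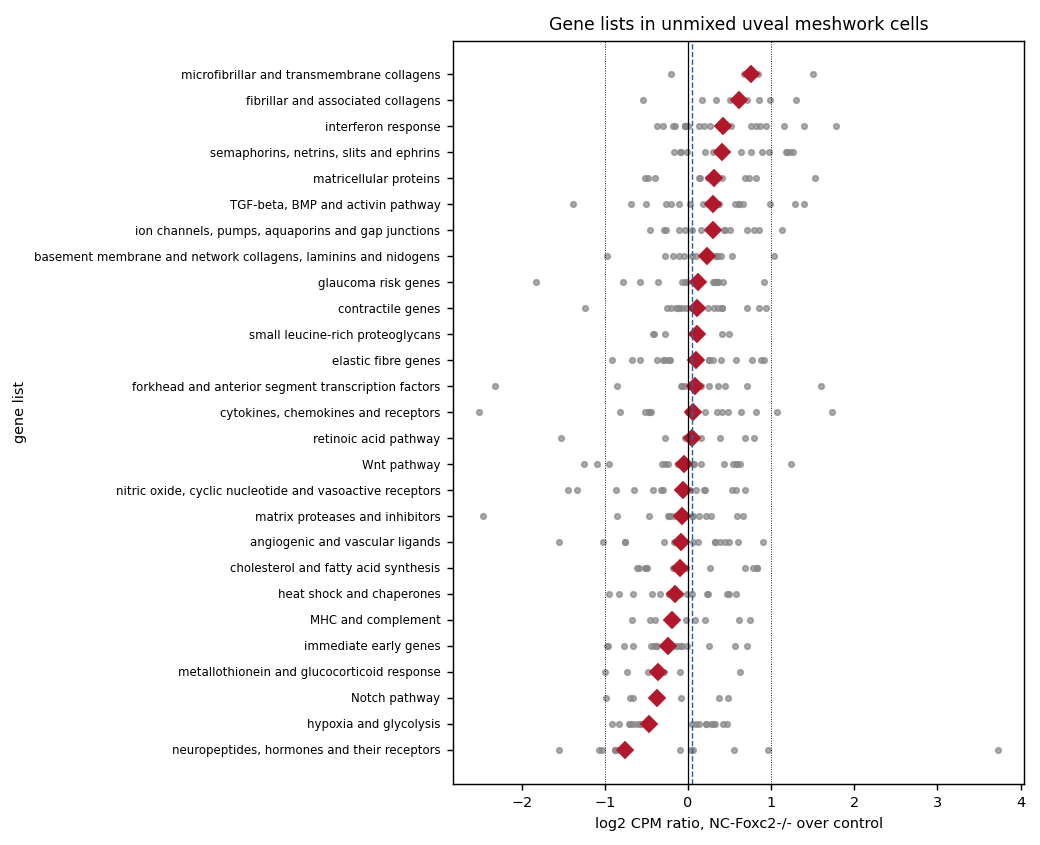
Log2 CPM ratio, NC-Foxc2-/- over control, of the tested genes of 27 lists in unmixed uveal cells (grey points), with the median of each list (red diamonds), that of all tested genes (dashed line) and a 2-fold difference (dotted lines). Medians run from 0.75 for microfibrillar and transmembrane collagens, whose Col23a1 the rule used, to -0.76 for neuropeptides, hormones and their receptors, whose Edn3 it limits, beside 0.05 for all genes.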

How the data were processed

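Single-cell RNA sequencing (10x 3′ v3.1) was made of anterior segments of NC-Foxc2-/- and control mice, in 1 pooled library each. Per the submitters' processing notes, the authors used Cell Ranger 4.0.0 and mm10, while no source used here names the annotation release. The deposited values are raw UMI counts of 32285 genes per barcode. A combined table of the series was not used here. No doublet caller was run, and barcodes with 10 or more UMIs of another type's markers were counted and, in a stated alternative, left out.

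Cells were chosen by the rule given above, and members and gene lists were chosen with earlier results of these data known. Counts were summed per class and library and scaled to CPM over all genes. Ratios are ratios of CPM, for genes with at least 50 UMIs over both libraries, and a gene was called at 2-fold or more or 0.5-fold or less. With 1 library per condition no test was made. Genes to name were the 15 highest and 15 lowest ratios between conditions among genes with at least 100 UMIs and 50 CPM in the higher library. A second group was the 15 highest and 10 lowest against classes. Added to these were Foxc1, Foxc2, markers, genes the study names and the 3 highest and 3 lowest of each list. Not every gene of the 10 lowest, the markers, the study's genes and the lists is given in the text. Genes of haemoglobin, ribosomal proteins, mitochondria and the Y chromosome and Xist stayed out of the first 2 groups. One gene of the 15 highest between conditions is not reported here. Other genes of the 81 and 44 that the text names were chosen after their values were seen. Thinning drew 3000 UMIs per barcode (seed 1). Positions are from GENCODE M21 (mm10). The work was done with pandas 2.3.3, SciPy 1.17.1, NumPy 2.4.6 and matplotlib 3.10.9 under Python 3.11.15, and the counting steps were tested on simulated data. Alternatives changed the rule, the filters, the minimum of UMIs, the fold, the scaling and the depth.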

Additional observations from a re-analysis of the deposited data

Results flagged for a closer look

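In 8 cases a gene with a 2-fold or larger difference between the conditions in unmixed uveal meshwork cells had the opposite direction in another class. In these cases both counting intervals were clear of 1. All 8 were of genes among the 30 named for the highest and lowest ratios, and the share over all genes is not given here. None of these differences between classes was tested. Ifi27l2a, an interferon-induced gene, had a ratio of NC-Foxc2-/- to control of 2.62 in uveal cells, against 0.824 in beam cells and 0.433 in fibroblasts. Cyp1b1 was at 0.281 in uveal cells and 1.18 in fibroblasts. Tnmd was at 0.310 in uveal cells, against 1.58 in beam cells and 1.70 in juxtacanalicular cells. These uveal values hold for unmixed cells, and over all uveal cells the ratio was 1.01 for Ifi27l2a, 0.666 for Tnmd and 0.538 for Mmp3, while under a looser rule that of Tnmd was 1.81, the direction of the other classes. Tac1, at 0.0658 in uveal cells, was at 3.33 in fibroblasts, Mbd1, at 0.316, was at 2.56 in fibroblasts, and Mmp3, at 0.181, was at 1.17 in fibroblasts. For Tac1 and Mmp3 most of the control UMIs in uveal cells were in 2 cells.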

How the results depend on the processing

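No paired analysis was possible because each condition has 1 library. The share of uveal cells was lower in NC-Foxc2-/- under each alternative, with a ratio of 0.356 over stromal barcodes and 0.528 under the looser rule, against 0.432. Genes higher in NC-Foxc2-/- numbered 388 under the looser rule, 95 with thinned cells, 475 at 20 or more UMIs, 47 at 200 or more and 27 at 3-fold, against 224. Genes lower numbered 336, 135, 520, 72 and 118 under these in the same order, against 255. Leaving out members with markers of another type and the top 5% by UMIs gave 77 higher and 104 lower of 3501 genes, and this also removed cells bearing Flt1 or Emcn. In unmixed cells 129 were lower. Genes higher than the 3 neighbouring classes numbered 52 with thinned cells, 26 at 3-fold, 29 at 200 or more UMIs, 189 by the NC-Foxc2-/- library alone and 172 by the control library alone, against 81. Genes lower than these classes numbered 29, 19, 17, 95 and 94, against 44. Between the conditions, S100a8 and S100a9 reversed to 0 in unmixed cells, Chil1 to 0.553, Krt15 to 1.34, Serpinb5 to 2.01 and Cstdc5 to 1.21, and Cstdc5 to 1.35 when the deepest cells were left out too. Without the 2 highest cells of each library Mmp3 reversed to 8.06. Of the other values of named genes 370 moved within their interval and 113 beyond it, of which 13, from Ifi27l2a, Mmp3, Tnmd, Col23a1 and Acta2, came to lie on the other side of 1 (Ifi27l2a 0.498 to 3.00 over its alternatives, Mmp3 0.181 to 46.5, Tnmd 0.310 to 1.81). With 1 pool per condition the spread between mice is unknown, and genes under about 50 UMIs could not be compared.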
